A study of Mus musculus with 8 samples.

Results

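The nerve and Schwann cell genes described here are Cntn1, Bex1, Bex2, Sox10, S100b, Ngfr, L1cam and Scn7a, measured in whole mouse lung by 14 probe sets out of 43681 on the array (8 of 27200 named genes). They were chosen by symbol, with the array results already known: Cntn1 and Bex2 stood among the largest falls of the dataset, and the other genes are known from the same cells or gene family. The difference between doxycycline and water was therefore used in choosing them and is given for the members as a description, without a test.

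Lungs came from BALB/c mice that all carried an inducible, lung-specific IL-1b transgene. The 3 control arrays are from mice given water and the 5 dox arrays from mice given doxycycline, which turns the transgene on; lungs were taken after 7 days, at about 12 weeks of age per the labels, whereas the header of a deposited table gives an age of 5 weeks. No arrays of mice that lacked the transgene and received the drug were used, so doxycycline itself and IL-1b cannot be told apart, and the sources used here do not give the promoter that drives the transgene. The labels call the arrays replicates without stating that each is a separate animal, so errors measure the spread between these arrays. Il1b itself ran from 191 to 293 intensity units in water and from 492 to 849 in dox, without overlap.

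Peripheral nerves enter the lung along the airways and vessels. Their axons are wrapped by Schwann cells, whose identity depends on the transcription factor Sox10 and which make the calcium-binding protein S100b and, mostly when they do not form myelin, the low-affinity neurotrophin receptor Ngfr. Cntn1 (contactin 1) is a membrane-anchored adhesion protein of the immunoglobulin superfamily that is needed for the junctions between axon and myelin beside the node of Ranvier. L1cam is an adhesion protein of growing axons and of Schwann cells that form no myelin. Scn7a encodes the sodium-sensing channel Nax. Bex1 and Bex2 are small intracellular proteins, named after their expression in the brain, that are encoded by neighbouring genes of one family on the X chromosome. None of these genes is made by nerve alone: Sox10 and S100b also mark melanocytes, cartilage shares S100b, and Ngfr marks airway basal cells.

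Cntn1, Bex1 and Bex2 were the members with a probe set whose dox values all lay below the water values, and the sequences before their transcription starts are shown for that reason. The windows are the 250 bases before a RefSeq start, on build GRCm38.p6, given 5′ to 3′ on the strand of the gene: chr15:92050915-92051164 (plus strand) for the first of 3 starts of Cntn1, chrX:136215514-136215763 (minus strand) for Bex1 and chrX:136068237-136068486 (minus strand) for Bex2. Capitals mark the GC box GGGCGG and the CCAAT box CCAAT, searched on both strands, with no overlap between the marked matches.
Cntn1: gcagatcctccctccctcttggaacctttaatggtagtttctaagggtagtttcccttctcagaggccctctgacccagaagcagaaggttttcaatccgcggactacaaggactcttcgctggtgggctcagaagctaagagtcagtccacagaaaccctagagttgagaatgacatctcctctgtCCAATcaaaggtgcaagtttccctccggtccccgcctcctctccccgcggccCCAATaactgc
Bex1: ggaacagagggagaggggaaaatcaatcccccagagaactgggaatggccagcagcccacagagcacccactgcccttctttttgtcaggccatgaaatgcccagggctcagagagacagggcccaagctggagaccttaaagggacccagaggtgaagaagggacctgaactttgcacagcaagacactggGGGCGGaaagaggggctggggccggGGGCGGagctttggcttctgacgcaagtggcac
Bex2: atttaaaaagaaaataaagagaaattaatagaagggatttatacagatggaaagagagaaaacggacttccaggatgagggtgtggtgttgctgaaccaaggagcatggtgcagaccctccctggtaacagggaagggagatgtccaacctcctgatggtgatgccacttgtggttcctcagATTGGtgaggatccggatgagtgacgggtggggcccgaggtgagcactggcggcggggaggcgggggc
The window of Bex1 held 2 GC boxes and no CCAAT box, whereas that of Cntn1 held 2 CCAAT boxes and that of Bex2 held 1, with no GC box in either. Of 32851 such windows, 32.7% held a GC box and 33.9% a CCAAT box. The other letters were also searched on both strands. TATAAA, found in 12.4% of windows, occurred once in the Bex2 window, on the strand opposite the gene (printed above as tttata). The SOX core was searched only as ACAAAG and ACAATG, found in 16.5% and 10.7% of windows, and neither occurred in the 3 windows. Other spellings of the SOX core were not searched. TTCAGCACC and GGACAGC, parts of the site of the neuronal repressor REST (0.3% and 5.28% of windows), were absent as well. A loose form of the NF-kB site, present in 17.6% of windows, occurred once in the Bex1 window. The matches of Cntn1 depended on the start: the window of its second start, not shown, held no CCAAT box but TATAAA once and ACAATG once, both on the strand opposite the gene, and that of the third, also not shown, held 2 CCAAT boxes. Windows were at hand for 7 of the 8 members; Sox10 was not matched.

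Intensities are the authors' RMA values on a linear scale, in arbitrary units, where the lower quartile of all probe sets lay between 13.9 and 14.5 units and the median between 40.8 and 41.9. A change is given as the log2 value in dox less that in water, with the standard error (SE) of limma. This linear model was fitted over all 43681 probe sets and draws the variance of each toward a value common to all. A probe set counts as past the threshold when its p-value, adjusted by Benjamini-Hochberg over all probe sets, was below 0.05. For lists, counts at an unadjusted p below 0.05 are given too. The share of all genes at that cut-off was not computed, so these counts have no background beside them. Whole lung is a mixture of cells, so fewer cells of a type and less RNA per cell cannot be told apart in any of these values.

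The adhesion gene Cntn1 had the lowest signal in dox relative to water. Its brightest probe set read 83.3, 88.3 and 119 units in the water arrays and 29.7, 18.5, 39.6, 34.8 and 41.9 units in dox arrays 1 to 5. Every dox value lay below every water value, and the lowest was that of dox 2. The geometric mean went from 95.6 units in water to 31.6 in dox, or 33.1% of water, with a log2 change of -1.60 ± 0.23 SE and SDs of 0.28 in water (n = 3) and 0.47 in dox (n = 5).

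A second Cntn1 probe set gave nearly the same picture at a lower level. It read 43.8, 51.5 and 55.4 units in water and 18.7, 15.3, 16.1, 20.4 and 22.7 units in dox, again without overlap and again with dox 2 lowest. Its log2 change was -1.44 ± 0.13 SE, to 36.9% of water, and its dox values came close to the lower quartile of the array, where signal above background is not shown and where a fall can be understated. The third Cntn1 probe set, by contrast, lay below that quartile on all 8 arrays (7.02 to 8.42 units) and changed by 0.03 ± 0.07 SE, which says nothing about the transcript. The second probe set and that of Bex1 carry the suffix s_at, which in the naming of such arrays marks probes that can match transcripts of more than one gene, so their assignment to a single gene is less certain.

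Bex2 had the next largest difference and a much brighter signal. Its single probe set read 878, 807 and 699 units in water and 397, 350, 308, 359 and 166 units in dox. All dox values lay below all water values, and dox 5 was far below the other dox arrays. The geometric mean went from 791 to 303 units (log2 change -1.38 ± 0.24 SE, 38.3% of water), and without dox 5 the log2 change was -1.17. Leaving dox 5 out thus made the difference smaller but kept its direction.

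For its relative Bex1 the groups were closer. It read 224, 276 and 311 units in water and 198, 188, 156, 171 and 164 units in dox, so that the lowest water array and the highest dox array were only a little apart. Its log2 change was -0.62 ± 0.11 SE, to 65.3% of water. The arrays that were lowest differed between the genes, dox 2 for Cntn1, dox 3 for Bex1 and dox 5 for Bex2.

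**Figure D1:**
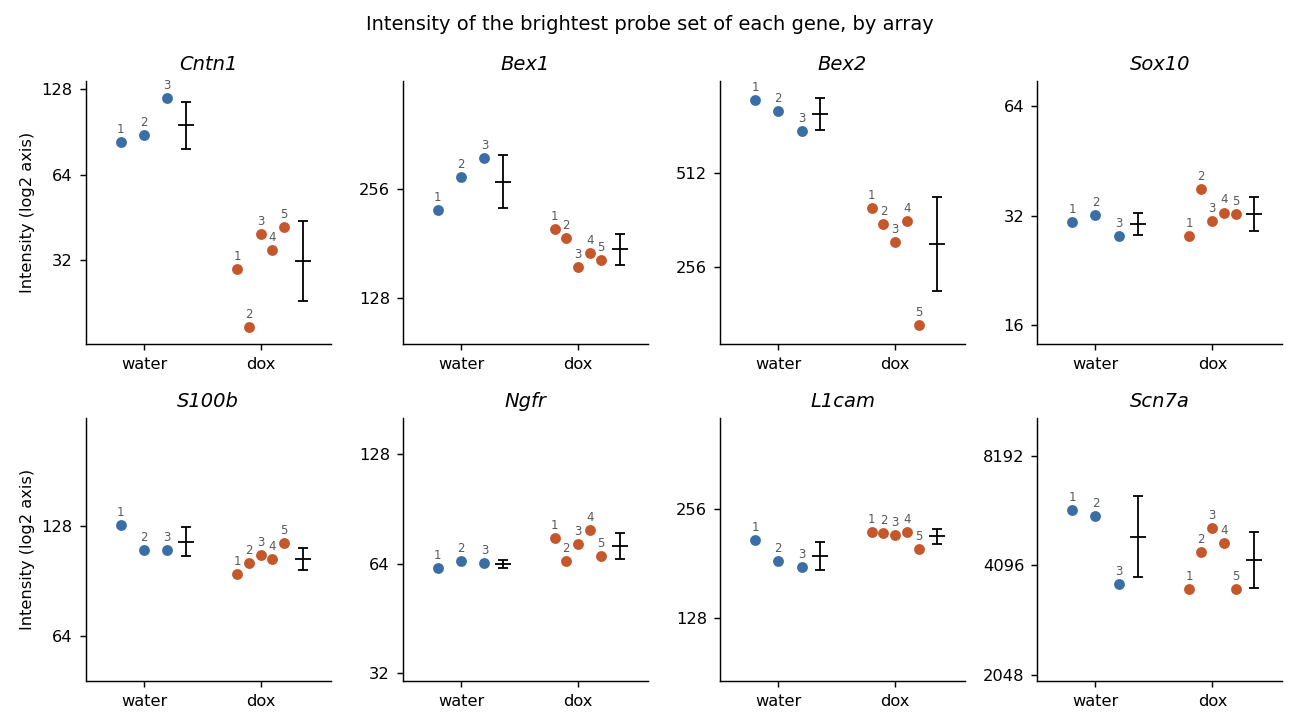
Intensity of the brightest probe set of each of the 8 genes on a log2 axis, with 1 point per array (blue water, orange dox, numbered by replicate) and, beside each group, the geometric mean with a bar of 1 SD on the log2 scale. The 5 dox points of Cntn1, Bex1 and Bex2 lie below all 3 water points, and those of the other 5 genes overlap with water.

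The groups overlapped for the Schwann cell members Sox10 and S100b. Sox10, the transcription factor that defines the lineage, read 30.7, 32.3 and 28.1 units in water and 28.2, 38.0, 31.0, 32.7 and 32.5 units in dox, a log2 change of 0.09 ± 0.10 SE. The groups overlapped over nearly their whole range, and the level was below the median of the array. The brighter S100b probe set read 129, 110 and 110 units in water and 94.6, 101, 106, 104 and 115 units in dox (log2 change -0.16 ± 0.09 SE), and the dimmer one changed by -0.13 ± 0.11 SE. The highest S100b value in dox lay above the lowest values in water, so these groups overlapped too.

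The neurotrophin receptor Ngfr read 62.2, 65.1 and 64.3 units in water and 75.2, 65.0, 72.4, 79.0 and 67.1 units in dox (log2 change 0.16 ± 0.08 SE). Only dox 2 fell within the narrow range of the water arrays, and the others lay slightly above it. The axonal adhesion protein L1cam had 3 probe sets, with log2 changes of 0.18 ± 0.08, 0.04 ± 0.09 and 0.13 ± 0.12 SE. Its brightest read 210, 184 and 177 units in water and 221, 219, 217, 220 and 198 units in dox, where dox 5 stood apart from 4 nearly equal arrays and within the water range.

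Scn7a, the brightest member, varied as much within groups as between them. Its first probe set read 5809, 5581 and 3642 units in water and 3528, 4451, 5177, 4715 and 3524 units in dox (log2 change -0.21 ± 0.17 SE). The second read 817, 884 and 590 units in water and 552, 759, 881, 757 and 508 units in dox (-0.15 ± 0.19 SE). Both probe sets were low on the same arrays, water 3, dox 1 and dox 5, so the spread of Scn7a was shared between its probe sets and cut across the groups.

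**Figure D2:**
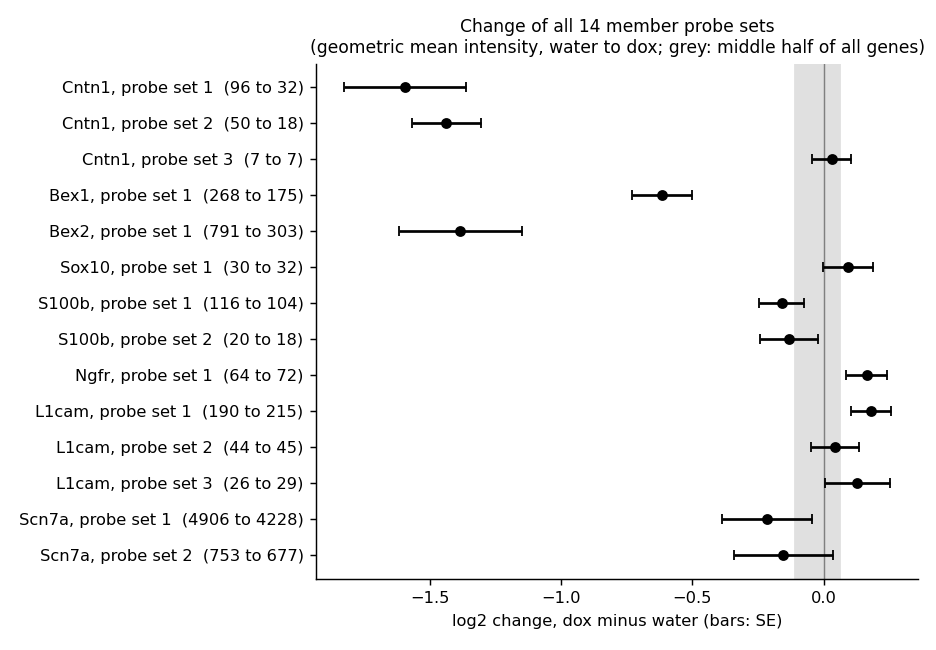
The log2 change of all 14 member probe sets, dox minus water, with bars of 1 SE and, in the labels, the geometric mean intensity in water and in dox. The first 2 Cntn1 probe sets, Bex1 and Bex2 lie between -1.60 and -0.62, and the other 10 between -0.21 and 0.18, near the grey band between the quartiles of all genes (-0.11 to 0.06).

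Of the 14 member probe sets, 4 passed the threshold downward and 0 upward, where 0.790% of all probe sets passed downward, 2.31% upward and 3.10% in either direction. The members were chosen on this contrast, so nothing is read from that count. The same 4 probe sets were those whose groups did not overlap with dox below water, which held for 6.12% of all probe sets; 0 lay apart with dox above water, which held for 6.04%. The log2 change of Bex1 was -0.59 without water 2 and -0.51 without water 3, and its probe set did not pass the threshold in either fit.

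The probe sets of 1 gene were compared over the 8 arrays after subtracting group means, as a description. Pearson's r was 0.95 between the Scn7a probe sets, 0.67 between the 2 brighter Cntn1 probe sets and 0.51 between those of S100b. For the pairs of L1cam probe sets it was 0.52, 0.38 and -0.57, so their agreement was mixed. Between genes, the deviations of Cntn1 from its group means had r = -0.57 with those of Bex2 and -0.18 with those of Bex1.

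**Figure D3:**
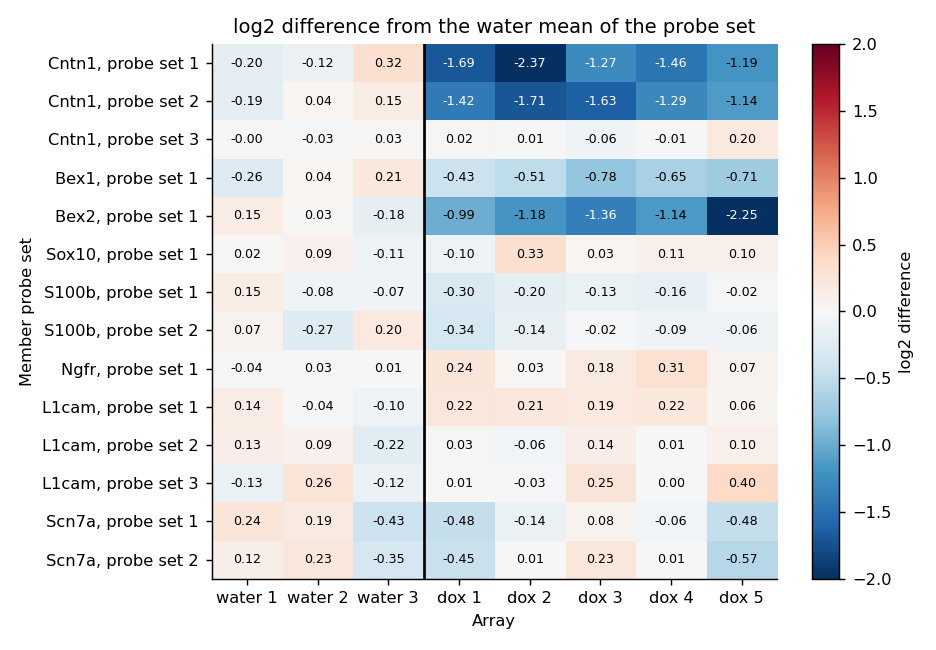
The log2 difference of each array from the water mean, for each of the 14 member probe sets (red higher, blue lower; the black line parts water from dox arrays). The blue block in the dox columns is made of the first 2 Cntn1 probe sets, Bex1 and Bex2, with the lowest values of -2.37 for Cntn1 in dox 2 and -2.25 for Bex2 in dox 5, and the Scn7a rows are low in water 3, dox 1 and dox 5.

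The genes next to Bex1 and Bex2 were examined in their RefSeq order on the X chromosome, from 6 protein-coding genes before Bex2 to 6 after Bex3. This window was chosen after the fall of the Bex genes was known. Of 19 measured genes in it other than the members, 3 fell and 0 rose, where 1.01% of all genes fell and 3.03% rose. The third family member of the cluster, Bex4, fell from a geometric mean of 1510 to 1075 units (-0.49 ± 0.11 SE, adjusted p = 0.0347, dox below water on all arrays). That call was lost without any array but dox 1 (adjusted p up to 0.132 with an array left out) and in the fit with replicate blocks (adjusted p = 0.223). Bex3, which encodes a partner of the death domain of Ngfr, had a log2 change of -0.03 ± 0.07 SE (adjusted p = 0.904).

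The genes that directly precede Bex2, Arxes2 and Arxes1, are a pair of close relatives known from adipocytes. Arxes2 read 1093, 1069 and 1046 units in water and 780, 782, 779, 856 and 651 units in dox, and it fell by 0.48 ± 0.09 SE (adjusted p = 0.0125). Arxes1 fell by 0.66 ± 0.13 SE (adjusted p = 0.0187). Like Bex2, both were lowest in dox 5, and neither passed once water 1 or water 2 was removed (adjusted p up to 0.0815). Nxf3 and the Tceal genes between the Bex genes did not pass, with log2 changes from -0.20 (Tceal5) to 0.22 (Tceal7). Adjacent genes thus differed, with Bex2, Bex4 and Bex1 lower and Tceal8 (-0.01 ± 0.08 SE) between them nearly level.

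**Figure D4:**
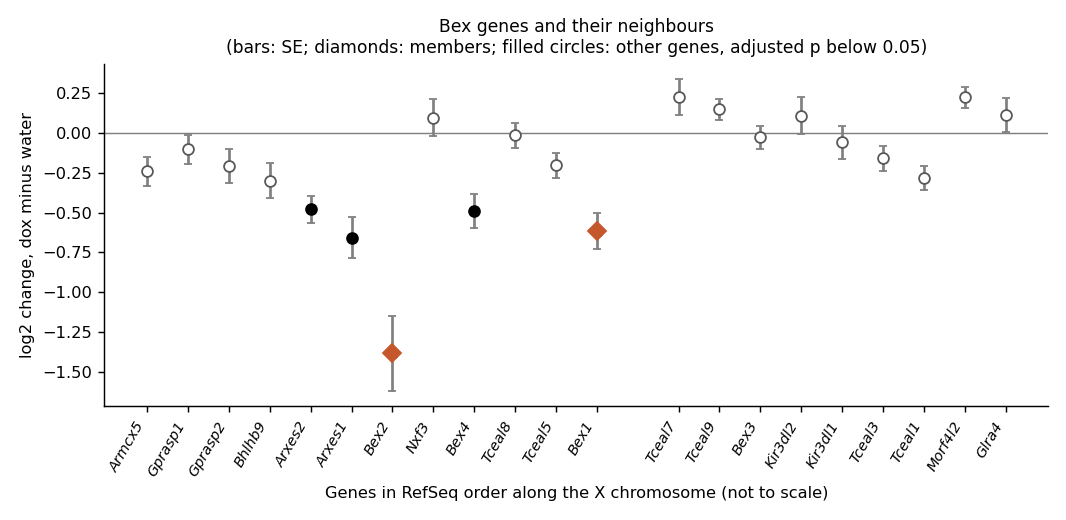
The log2 change, dox minus water, of 21 measured genes in their order along the X chromosome, with bars of 1 SE (diamonds for Bex2 and Bex1, filled circles for other genes past the threshold, open circles for genes that did not pass). Bex2 is lowest at -1.38, next to Arxes2 and Arxes1, and Bex4 and Bex1 are interleaved with open circles near 0.

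Among 35 other Schwann and glial genes, 1 fell and 2 rose, and the median log2 change was -0.015, where that of all 27200 genes was -0.025. Of the myelin genes, the adhesion protein Mag changed by -0.03 ± 0.08 SE and the basic protein Mbp by 0.15 ± 0.07. Of the 35 genes, 6 had mean signals below the lower quartile of the array, among them the Schwann cell cadherin Cdh19 and the precursor factor Foxd3, so that a fall could not be seen there.

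The 3 glial genes that passed are also made by other lung cells. Pmp22, a membrane protein of compact myelin that many epithelia and fibroblasts share, fell from 6833 to 5225 units (-0.39 ± 0.07 SE, adjusted p = 0.00891), with every dox array below every water array. Egr2, the master regulator of myelination and a gene that macrophages also induce, read 129, 131 and 134 units in water and 291, 365, 295, 270 and 318 units in dox, a rise of 1.22 ± 0.09 SE (adjusted p = 4.72e-05). Macrophage markers were higher beside it: 10 of 12 rose, led by Mmp12 (3.12 ± 0.15 SE, adjusted p = 1.84e-06) and Cd14 (2.40 ± 0.15 SE, adjusted p = 9.82e-06), 0 of 12 lay below the lower quartile, and their summed signal was 22065 to 22653 units in water and 28091 to 31980 in dox. Their part in the rise of Egr2 was not tested. Mal, a lipid raft protein of myelin and of epithelia, rose by 0.41 ± 0.09 SE (adjusted p = 0.028), which no longer passed when water 1, water 2, dox 2, dox 3 or dox 5 was removed (adjusted p up to 0.104).

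Of 36 axon and neuron genes, 0 passed in limma in either direction, 3 had an unadjusted p below 0.05, and the median log2 change was -0.01. Of these genes, 12 were below the lower quartile of the array, among them Nefl and Snap25. The smallest p was that of Stmn2, a regulator of microtubules in growing axons, which read 901, 833 and 863 units in water and 592 to 750 in dox (-0.38 ± 0.09 SE, adjusted p = 0.0585). The growth cone protein Gap43 changed by -0.12 ± 0.11 SE, the neuronal ubiquitin hydrolase Uchl1 by 0.00 ± 0.11 and the neuronal tubulin Tubb3 by -0.06 ± 0.07.

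Of 19 measured genes of the neurotrophin and neuregulin system, 0 passed in limma, 4 had an unadjusted p below 0.05, and the median was -0.07. The ligand with the smallest p, Bdnf, read 356, 406 and 399 units in water and 264 to 342 in dox (-0.38 ± 0.09 SE, adjusted p = 0.0534), and its other probe set changed by -0.35 ± 0.09 (adjusted p = 0.053). The co-receptor Sort1 changed by -0.16 ± 0.06 SE (adjusted p = 0.247), and Erbb3, the neuregulin receptor of Schwann cells, by 0.06 ± 0.10.

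Relatives and partners of the members moved in both directions. Of 28, 3 fell and 1 rose, with a median of -0.07. Chl1, the close homolog of L1cam, read 10.5, 11.9 and 8.79 units in water and 28.9, 49.9, 41.8, 29.4 and 53.6 units in dox, a rise of 1.93 ± 0.21 SE (adjusted p = 0.000405) from a level below the lower quartile, so that its true size may be larger. A second Chl1 probe set, dim in both groups, changed by 0.28 ± 0.10 SE (adjusted p = 0.205). Cntn4, another contactin, read 33.8, 53.6 and 45.2 units in water and 19.6, 26.7, 27.5, 24.8 and 28.0 in dox, a fall of -0.79 ± 0.15 SE (adjusted p = 0.0182) that did not pass when water 2 or water 3 was removed (adjusted p up to 0.0767). Its second probe set did not pass (-0.27 ± 0.11 SE, adjusted p = 0.247).

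The other 2 falls were those of Bex4 (above) and of Ank3, the anchor of sodium channels at the axon's initial segment, named after its values were seen (-0.30 ± 0.07 SE, adjusted p = 0.0379, lost whichever array was left out, adjusted p up to 0.12). The next brightest Ank3 probe set passed too (-0.28 ± 0.06 SE, adjusted p = 0.0338), and the dimmer ones did not (-0.23 to 0.00, adjusted p from 0.331 to 0.992). Among the other contactins, Cntn2 changed by -0.29 ± 0.08 SE (adjusted p = 0.0675), while Cntn3, Cntn5 and Cntn6 had changes from -0.17 to -0.01. The contactin partners of the junction beside the node, Cntnap1 and Nfasc, changed by -0.08 ± 0.07 and -0.04 ± 0.10 SE. The number of falls in this list was 0 without water 2 and 0 without water 3, and 1 without water 1 or dox 2, 3, 4 or 5.

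**Figure D5:**
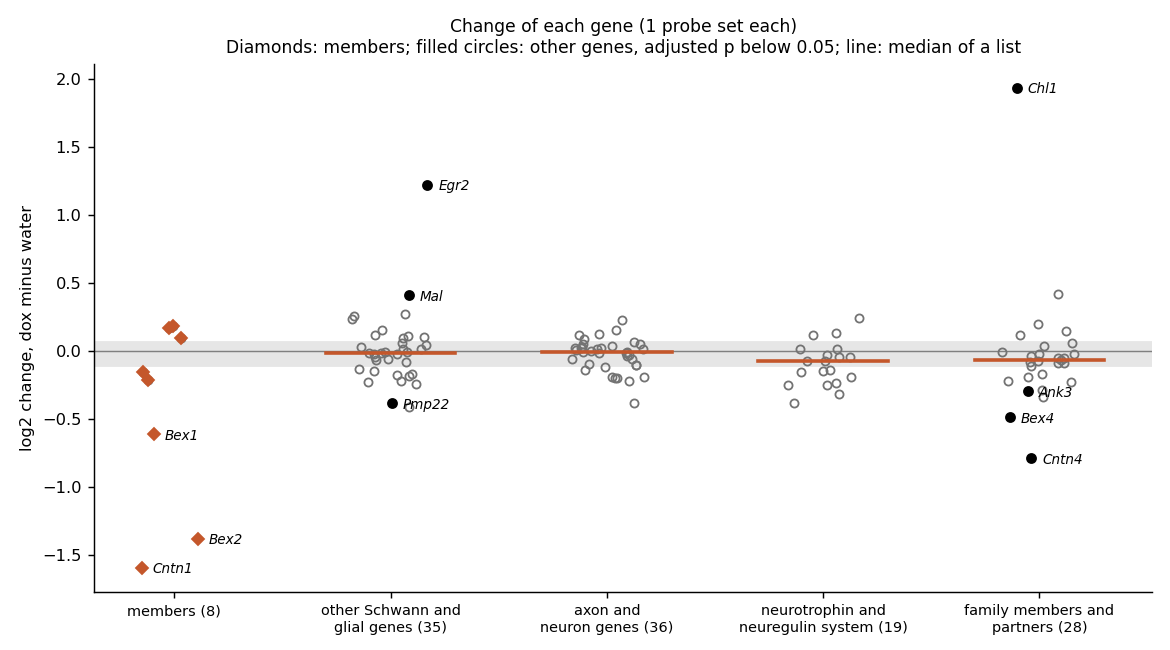
The log2 change of each gene, dox minus water, for the 8 members (diamonds) and 4 lists of other genes (circles, filled and named where past the threshold, with an orange line at the median of the list); the grey band lies between the quartiles of all genes. The medians of the 4 lists lie between -0.07 and -0.01, with Egr2 and Chl1 as the highest points.

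Markers of other cell types that a lung sample can hold were measured beside the members. Summed fat markers were lower in 4 of 5 dox arrays than in any water array, with 2001 to 2353 units in water and 668, 686, 845, 992 and 2115 units in dox. Of 11 fat markers 1 fell (Cidea, -0.44 ± 0.09 SE, adjusted p = 0.0187) and 9 had an unadjusted p below 0.05. Their median was -0.48, and 1 lay below the lower quartile (Pck1). The largest changes did not pass: Adipoq (-1.84 ± 0.49 SE, adjusted p = 0.0752), Cfd (-1.45 ± 0.43, 0.114), Thrsp (-1.19 ± 0.28, 0.0505) and Fabp4 (-1.05 ± 0.33, 0.128). Fat marker falls numbered 6 without dox 4, 2 without dox 1 and 0 without water 2, water 3 or dox 2, where Cidea was also lost (adjusted p up to 0.0813). In dox 4, whose sum of 2115 lay within the water range, Cntn1 read 34.8 units, Bex2 359 and Bex1 171, all below every water array. That is a single array, and the part of fat content in the signal of these genes was not tested. Of 12 heart muscle markers 0 passed, with summed signals of 9360 to 11891 units in water and 5082 to 13151 in dox, the highest again in dox 4. Their median was -0.38, 1 of them had an unadjusted p below 0.05, and the smallest p was that of the atrial myosin light chain Myl7 (-0.73 ± 0.29 SE, adjusted p = 0.245).

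Few fibroblast, smooth muscle and endothelial markers passed the threshold. More had an unadjusted p below 0.05, a count without the share of all genes beside it. Of 17 fibroblast markers 2 fell (Wnt2, -0.40 ± 0.09 SE, and Inmt, -0.36 ± 0.08) and 1 rose (Col14a1, 0.44 ± 0.08), with a median of -0.23 and sums of 56308 to 62285 units in water and 46487 to 55445 in dox. An unadjusted p below 0.05 was found for 10 of the 17, in both directions, and the changes of the list ran from -0.44 to 0.44. The calls of Wnt2 and Inmt were lost when any array but dox 4 was removed (adjusted p up to 0.144 and 0.111), and that of Col14a1 without water 1 or water 3 (up to 0.0563). Without dox 4 there were 4 fibroblast falls, against 1 without water 1 and 0 without any of the other 6 arrays. Of 13 smooth muscle and pericyte markers 0 passed in limma and 7 had an unadjusted p below 0.05. Their median was -0.28, the sums were 3779 to 4042 units in water and 2596 to 3269 in dox, and the smallest p was that of the muscle filament gene Des (-0.44 ± 0.11 SE, adjusted p = 0.0659). Of 12 endothelial markers 1 fell, the endothelin receptor Ednrb (-0.57 ± 0.13 SE, adjusted p = 0.0437), with a median of -0.27 and sums of 37258 to 39687 and 30028 to 34063 units. All 12 changes were negative, from -0.57 to -0.08, and 10 had an unadjusted p below 0.05. The Ednrb probe set given here, its brightest, did not pass when water 1, water 2 or any of dox 1, 2, 3 and 5 was removed (adjusted p up to 0.154). Another Ednrb probe set passed on all arrays (-0.76 ± 0.17 SE, adjusted p = 0.0382). The remaining ones did not (-0.65 ± 0.17 and -0.45 ± 0.15, adjusted p = 0.0664 and 0.161), though dox lay below water without overlap for each. Endothelial falls numbered 0 or 1 with an array left out and 5 with the trend and robust prior. Neutrophil markers rose in 5 of 11 cases (3 without water 2, water 3 or dox 2, up to 7 with another array left out, and 1 with replicate blocks, where Cxcr2 had an adjusted p of 0.0562), led by Mmp8 (2.35 ± 0.20 SE) and Cxcr2 (1.45 ± 0.21), with sums of 2487 to 5062 units in water and 5270 to 10325 in dox. In water Cxcr2 read 6.76 to 10.3 units, below the lower quartile of the array, and its change was as low as 0.66 over the other settings. The part of these shifts in the lower signal of Cntn1, Bex1 and Bex2 was not tested. Of the cell types that share single members with nerve, 0 of 16 cartilage, 0 of 8 melanocyte, 0 of 6 basal cell and 0 of 11 neuroendocrine markers passed in limma (0, 2, 1 and 1 at an unadjusted p below 0.05). The medians of these lists lay between -0.09 and 0.02. Their smallest p-values were those of Col11a2 (0.14 ± 0.07 SE, adjusted p = 0.324), Mitf (0.20 ± 0.08, 0.273), Trp63 (0.49 ± 0.12, 0.052) and Chgb (-0.23 ± 0.09, 0.253). Of 6 mesothelial markers 0 passed in limma and 2 had an unadjusted p below 0.05, with a median of 0.18. The smallest p was that of Upk3b (-0.29 ± 0.12 SE, adjusted p = 0.238), the only negative change of this list. The changes of the rest ran from 0.02 (Lrrn4) to 0.27 (Muc16). Of 12 lung epithelial markers 1 rose, the surfactant protein gene Sftpd (0.44 ± 0.08 SE, adjusted p = 0.00817), with a median of 0.01.

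Genes whose pattern over the 8 arrays was most like that of Cntn1 were taken from 14862 genes of above-median signal. By Pearson's r they were Rfxank (0.99), Pde9a (0.98), Cep95 (0.97), Kptn (0.97) and Zc4h2 (0.97). Their own log2 changes were small, from -0.39 (Pde9a) to -0.10 (Rfxank), and none of the 5 passed the threshold (adjusted p from 0.0529 to 0.456). After group means were subtracted, the highest r were those of Cep164 (0.96), Rfxank (0.95), Rhobtb2 (0.95), Dlg3 (0.95) and Slc13a4 (0.95). With 8 arrays and this many candidates such values describe these arrays only. Among the members the uncentred r with Cntn1 was 0.77 for Bex1, 0.68 for Bex2, 0.64 for S100b and 0.22 for Scn7a, and it was negative for Sox10 (-0.57), Ngfr (-0.50) and L1cam (-0.82).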

How the data were processed

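Whole-lung RNA was hybridised as biotinylated cRNA, per the labels. The authors deposited linear intensities from RMA (per the submitters' processing notes), with 1 value for each probe set on each of 8 arrays; the RMA version and a genome build were not named. RMA usually equalises the arrays, so a change in total RNA cannot be seen. Precision is limited by the number of arrays, and detection calls were not used. Symbols came from the deposited annotation, joined by probe set; members keep it, and list genes were brought up to date with RefSeq names. That annotation also holds 8 value columns that match no sample label and were not used.

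Values were taken to log2 and fitted with limma 3.58.1 in R 4.3.3 (lmFit, eBayes, 2-sided, group as the only term), 1 test per probe set, with adjustment over all 43681. In lists, the probe set with the highest mean stood for its gene. The fit was tested on simulated data. The members, the 17 lists and the naming rule (2 largest changes in each direction per list, or the smallest p where none passed; the 5 genes most like Cntn1) were chosen with earlier results of these data known. Ank3, Arxes1, Arxes2 and the other genes named outside that rule were chosen after their values were seen. A few genes are not reported here. Alternatives were 8 other settings and each of the 8 arrays left out in turn.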

Additional observations from a re-analysis of the deposited data

Results flagged for a closer look

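The brightest L1cam probe set read 198 units in dox 5, against 217 to 221 units in the other 4 dox arrays, and this gap was larger than Dixon's limit for 5 values (0.803 of the range, limit 0.71). It was 1 of 43 probe sets for which the dox arrays were examined in this way, and chance alone gives about 1 in 20. Bex2 in dox 5 (166 units) came close to the limit, with 0.708 of the range.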

How the results depend on the processing

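Cntn1 and Bex2 were chosen for their falls, so the direction of their probe sets below water was fixed by that choice. Bex1 was added as a relative with these results already known. Over all alternatives the log2 change of the brightest Cntn1 probe set ran from -1.78 to -1.22, that of the second from -1.59 to -0.94, that of Bex2 from -1.48 to -1.17 and that of Bex1 from -0.75 to -0.51. Calls downward among the members numbered 3 or 4 in every setting, and 0 upward. Over all probe sets 345 were lower, but 673 with the trend and robust prior and 624 with a pseudocount of 16 (146 to 338 with an array left out), and 1010 were higher (682 to 922 with an array left out). The cause of these shifts was not tested. The replicate numbers did not pair the arrays: the deviations of same-numbered water and dox arrays had r of 0.011, 0.036 and -0.109, and 0 of 3 water arrays correlated best with their own number. With the replicate number as a block, which leaves fewer residual degrees of freedom, 101 probe sets were lower and 575 higher, 0 of the other glial genes fell and 1 rose, 1 relative or partner fell, and the log2 change of Bex1 was -0.57, short of the threshold. Falls among glial genes numbered 2 with the pseudocount, and rises 1 to 3 with an array left out. In both the axon list and the neurotrophin list 1 gene fell with the trend and robust prior, repeated quantile normalization, without the dimmest 25% of probe sets, with 1 probe set per gene and with the pseudocount, and 0 to 1 with an array left out. Falls among relatives and partners numbered 0 to 2 with an array left out. Over the other settings, fibroblast falls numbered 0 to 5, endothelial falls 0 to 5 and adipocyte falls 1 to 4. Genes near the lower quartile, such as Chl1 in water, have no measured level there.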
